A study of Schizosaccharomyces pombe with 5 samples.

Results

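The Sty1 pathway is the stress-activated mitogen-activated protein kinase (MAPK) cascade of fission yeast, Schizosaccharomyces pombe. Its 10 genes (mak1, mpr1, mcs4, win1, wis4, wis1, sty1, pyp1, pyp2 and srk1) were taken by gene name from 4 gene tables that together listed 5145 genes, and all 10 were found. Total RNA of the wild-type strain 972 h-, a heterothallic haploid, was sequenced in 5 conditions: untreated cells, cells in 3 mM diamide (DIA) for 30 or 60 min, and cells in 75 mM hydroxyurea (HU) for 60 or 150 min. Diamide oxidizes thiols, and hydroxyurea inhibits ribonucleotide reductase. All groups were grown at 30 °C, as the growth notes state, and carry no mutation. The labels name 1 sample per condition, whereas 15 libraries are listed, with 24116729 to 24274040 read pairs each (median 24205618) and a GC content of 43.29% to 44.12%.

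The value analysed for each gene is the authors' mean normalized count, a single number per gene averaged over the libraries of all conditions. It mixes untreated and treated cells. It therefore shows how abundant the mRNA of each member was across the whole experiment and says nothing of its response to either drug. No value per library or per condition was analysed here, so the levels carry no SD and no n, and no difference between genes was tested against replicate error. The mean was identical in the 4 tables for every gene they share. Because a longer mRNA gives more reads, a level is given below as the mean normalized count per kb of coding sequence. Levels per kb were obtained for 5101 genes, with a median of 1072.

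In this pathway stress reaches Sty1 through a relay of phosphate groups and a chain of kinases. Histidine kinases pass phosphate to the phosphotransfer protein Mpr1 and from there to the response regulator Mcs4, which binds the MAPK kinase kinases (MAPKKKs) Wis4 and Win1. These activate the MAPK kinase (MAPKK) Wis1, which phosphorylates Sty1. The tyrosine phosphatases Pyp1 and Pyp2 switch Sty1 off, Srk1 is a kinase that Sty1 controls, and the transcription factor Atf1 carries the signal to the stress genes.

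The mRNA of sty1 was the most abundant of the pathway, and that of the phosphatase gene pyp2 the least. Per kb of coding sequence, sty1 stood at 6374 and pyp2 at 162, a ratio of 39.4. The other 8 members lay between 432 for mak1 and 1481 for mcs4. On this scale sty1, mcs4 and wis4 were above the median gene, and the other 7 members were below it. The tally depends on the length: pyp1 was also above the median gene per kb of exons and per kb of gene span (4 above, 6 below), and without division by length mak1, win1, wis1 and pyp1 joined the first 3 (7 above, 3 below). The median of the 10 members was 786, which exceeds the level of 38.9% of all genes with a level.

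**Figure D1:**
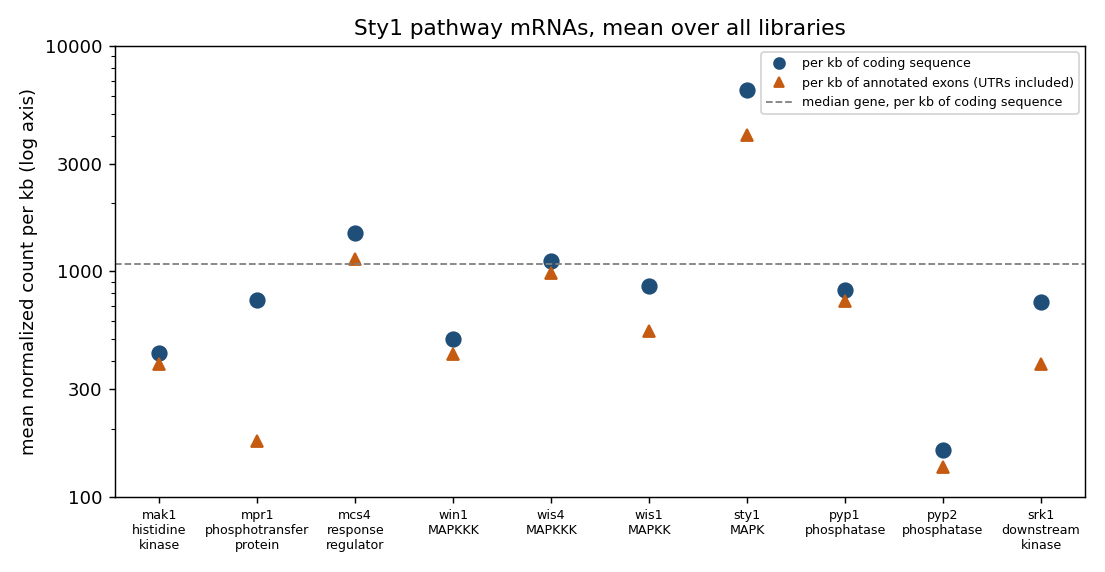
Mean normalized count per kb for the 10 members, in the order of their roles from histidine kinase to downstream kinase, on a log axis. Circles are per kb of coding sequence, triangles per kb of annotated exons, and the dashed line is the median gene at 1072; each symbol is 1 mean over all libraries and has no error bar. The circle of sty1 stands at 6374, above those of all other members, and that of pyp2 at 162, below them.

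At the sensing end of the pathway the mRNAs were of low to middle abundance. The gene mak1 (SPAC1834.08, chromosome I), which encodes a histidine kinase, had a mean normalized count of 2126 over a coding sequence of 4920 bases, a level of 432 per kb. This was lower than the median gene by a factor of 2.48 and at the 19.8th percentile, which was 27.9 per kb of exons, 28.8 per kb of gene span and 67.5 without division by length. The phosphotransfer gene mpr1 (SPBC725.02, chromosome II) had 659 normalized counts over 888 coding bases, a level of 742 per kb at the 36.8th percentile. The response regulator gene mcs4 (SPBC887.10, chromosome II) had 2324 normalized counts over 1569 coding bases. Its level of 1481 per kb, at the 61.7th percentile, was the second highest of the pathway and 2.0 times that of mpr1.

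The annotated mRNA of mpr1 is much longer than its reading frame, with 3722 exon bases against 888 coding bases. Per kb of exons its level was 177 rather than 742, and its place fell from the sixth to the ninth of the 10 members. The ratio of mcs4 to mpr1 was then 6.40 in place of 2.0, so the place of mpr1 depends on the length used. In the same annotation 86 exon bases of mpr1 are shared with the neighbouring gene maa1 on the same strand, which had a mean normalized count of 7191.

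The MAPKKK genes stood at unequal levels. The gene wis4 (SPAC9G1.02, chromosome I) had 4653 normalized counts over 4206 coding bases, and win1 (SPAC1006.09, chromosome I) had 2162 over 4311. The level of wis4 was 1106 per kb and that of win1 502 per kb, a ratio of 2.21. It was 2.15 without any division by length and 2.30 per kb of exons, all in the same direction. Per kb of coding sequence the level of wis4 was near the median gene (51.1st percentile), and that of win1 was at the 23.9th percentile. These percentiles moved with the length. That of wis4 was 60.5 per kb of exons and 85.2 without division by length, and that of win1 was 31.4 and 68.1.

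The MAPKK gene wis1 (SPBC409.07c, chromosome II) had 1560 normalized counts over 1818 coding bases, a level of 858 per kb at the 41.9th percentile. One step further down, the MAPK gene sty1 (SPAC24B11.06c, chromosome I) had 6693 normalized counts over only 1050 coding bases. Its level of 6374 per kb lay at the 89.3rd percentile, 5.94 times the median gene. The level of sty1 was 7.43 times that of wis1, 5.76 times that of wis4, 12.7 times that of win1 and 14.8 times that of mak1. The closest member on this scale, mcs4, was lower by a factor of 4.30. Without division by length the closest was wis4, and sty1 was 1.44 times wis4 and 2.88 times mcs4. The level of sty1 kept the first place per kb of coding sequence and per kb of exons, and its percentile stayed between 88.6 and 89.6 whichever length or gene set was used.

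The phosphatase genes stood far apart. The gene pyp1 (SPAC26F1.10c, chromosome I) had 1371 normalized counts over 1653 coding bases, a level of 829 per kb, and pyp2 (SPAC19D5.01, chromosome I) had 345 over 2136. With 162 per kb, pyp2 was at the 8.04th percentile of all genes, and pyp1 was 5.13 times as abundant. Of the 10 members pyp2 had the lowest percentile per coding length. Stress is known to switch on pyp2 through Sty1 and Atf1, but a mean over all conditions does not show whether that happened here. The kinase gene srk1 (SPCC1322.08, chromosome III) had 1280 normalized counts over 1743 coding bases, a level of 734 per kb at the 36.4th percentile.

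**Figure D2:**
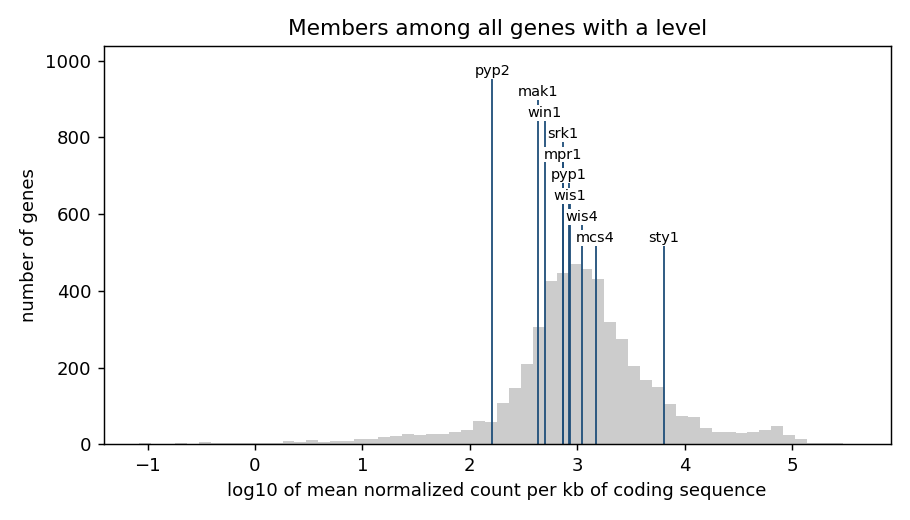
Histogram of the level of 5101 genes, as log10 of the mean normalized count per kb of coding sequence (x axis) against the number of genes (y axis), with a vertical line for each member. The height of a line has no meaning. The line of pyp2, at 162 per kb, stands in the left tail and that of sty1, at 6374, on the right flank, and the other 8 lie between 432 and 1481.

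From the highest to the lowest level per coding length, the order was sty1, mcs4, wis4, wis1, pyp1, mpr1, srk1, win1, mak1 and pyp2. Several neighbours in this order were very close: wis1 was 1.03 times pyp1, and mpr1 was 1.01 times srk1. Their order cannot be read as a difference, since no spread was at hand, and per kb of exons pyp1 stood above wis1 (742 against 543). The steps between mcs4 and wis4 (1.34 times), pyp1 and mpr1 (1.12 times) and win1 and mak1 (1.16 times) were also small per coding length. The closeness of mpr1 to srk1 and pyp1 did not hold per kb of exons, where mpr1 was at 177, srk1 at 387 and pyp1 at 742. The gene srk1 was 1.46 times win1 per coding length, but per kb of exons win1 (430) and mak1 (390) stood above srk1 (387). Without division by length win1 (2162) and mak1 (2126) also stood above wis1 (1560), pyp1 (1371) and srk1 (1280). Per coding length the wide steps were those below sty1 (4.30 times) and above pyp2 (2.67 times). They narrowed elsewhere: sty1 was 1.44 times wis4 without division by length, and per kb of exons pyp2 (136) was next to mpr1 (177).

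Each of the 10 members is overlapped on the opposite strand by at least 1 noncoding RNA of the RefSeq annotation, as are 75.7% of the 5101 genes with a level. For sty1 the antisense RNA SPNCRNA.622 covers 82.0% of its exon bases, and for pyp1 SPNCRNA.4331 covers 100% of them. Protein-coding genes of the tables overlap 2 members on the opposite strand. The ribosomal protein gene rpl3001, with a mean normalized count of 25537, shares 97 exon bases with wis4. The gene SPAC9G1.14, with 222, shares 190, which is 4.03% of the exon bases of wis4, and emc10, with 1070, shares 48 with pyp2. The libraries were made with a strand-specific kit, and whether the counting used the strand is not given in the sources used here. The part of the antisense RNAs in the levels was not tested.

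The 16 genes of a list of other pathway genes had a higher median than the members. Their median level was 1783 per kb, at the 67.3rd percentile. Of the 16, 12 were above the median gene, against 8 of 16 per kb of exons. This median depends on the choice of genes, since the list also holds rad24 (37364.5 per kb), rad25 (14938 per kb) and cdc37 (2440.5 per kb). The highest was tdh1, a glyceraldehyde-3-phosphate dehydrogenase gene whose product also takes part in peroxide signalling to Sty1, with 382620 per kb, the highest level of all genes. The lowest was mak3, at 308 per kb, beside mak2 at 358. Both encode histidine kinases that sense peroxide, and per coding length both stood below mak1, at 432. Without division by length both stood above mak1 (2485 for mak2 and 2164 for mak3, against 2126). The transcription factor genes atf1 (1821 per kb) and pcr1 (1746 per kb), whose products bind DNA as a pair, lay close to each other on this scale. Per kb of exons atf1 was 1.80 times pcr1, and without division by length 3.44 times. The level of sty1 was 3.50 times that of atf1. Among the phosphatase genes of the 2C type, ptc3 reached 6185 per kb, against 1154 to 1438 for ptc1, ptc2 and ptc4. The levels of sty1 and ptc3 differed by 1.03 times, and ptc3 was the higher per kb of exons, where it was 1.11 times sty1.

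The same steps of the other MAPK cascades of fission yeast were set beside these levels. In the cell integrity pathway, the MAPK gene pmk1 stood at 1834 per kb, its MAPKK gene pek1 at 1399 and its MAPKKK gene mkh1 at 358. As in the Sty1 pathway, the MAPK had the highest level of the cascade. The level of pmk1 was 5.13 times that of mkh1, near the 5.76 times of sty1 over wis4 and below the 12.7 times of sty1 over win1. In the same order these ratios were 4.51, 4.09 and 9.38 per kb of exons, and 1.94, 1.44 and 3.10 without division by length. Per kb of coding sequence pmk1 was 1.31 times its MAPKK, against 7.43 times for sty1 and wis1. In the pheromone pathway the MAPK gene spk1 was at 275, the MAPKK gene byr1 at 1408 and the MAPKKK gene byr2 at 266. The MAPK was thus lower than its MAPKK by a factor of 5.12. The order of spk1 and byr2 changed with the length: byr2 was 1.47 times spk1 per kb of exons and 1.71 times without division. Between the cascades, sty1 was 3.48 times pmk1 and 23.2 times spk1. The MAPKK genes were closer, with pek1 at 1.63 times and byr1 at 1.64 times wis1, but without division by length both were slightly below wis1 (0.979 and 0.923 times). The list of the cell integrity pathway, 7 genes, had a median of 837 per kb with 3 genes above the median gene. That of the pheromone pathway, also 7, had 429 with 2 above it, the highest being ras1 at 2439 per kb. Beside these medians, the 10 Sty1 members had a median of 786 and all genes 1072.

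**Figure D3:**
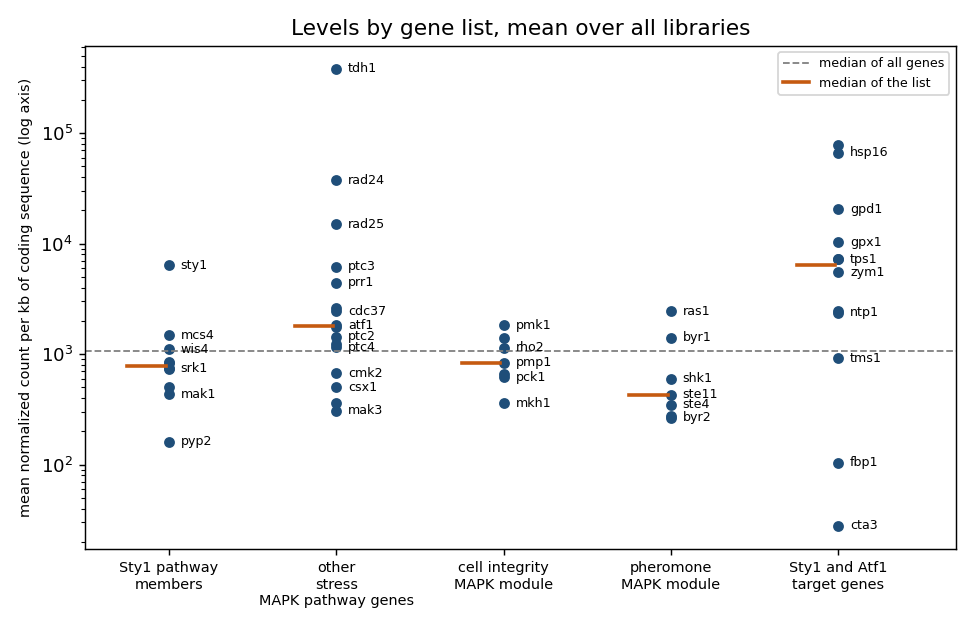
Level of each listed gene (circles), as the mean normalized count per kb of coding sequence on a log axis, for the 10 members, the 16 other pathway genes, the cell integrity and pheromone MAPK modules with 7 genes each, and 12 target genes of Sty1 and Atf1. Orange bars are list medians, from left to right 786, 1783, 837, 429 and 6375, and the dashed line is the median of all genes, 1072; names that would overlap are left out.

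At the far end of the pathway, 12 genes known to be switched on through Sty1 and Atf1 covered the widest range per kb of coding sequence. Without division by length the other pathway genes ran wider, from 901 to 386829, against 87.0 to 28635 for these 12. Their median was 6375 per kb, at the 89.3rd percentile, and 9 of the 12 were above the median gene. The highest was the heat shock gene hsp9, at 78414 per kb over a coding sequence of 207 bases, and the lowest was cta3, which encodes a calcium-transporting ATPase, at 27.9. The first place changed with the length: per kb of exons the heat shock gene hsp16 stood at 33530 and hsp9 at 22544, and without division hsp16 (28635) and gpd1 (23839) were both above hsp9 (16232). With the exception of tms1, cta3 and fbp1, which encodes fructose-1,6-bisphosphatase, each of these target genes exceeded every pathway member but sty1 per kb of coding sequence and per kb of exons. Without division by length ctt1 and zym1 were exceptions too. Since treated cells make up most of the conditions in the mean, these levels do not describe unstressed cells.

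The labelled material was checked on a few genes. Of the housekeeping genes, act1 (actin) had 52612 per kb and adh1 (alcohol dehydrogenase) 152303, whereas cdc2, the cell cycle kinase, had 1832. An h- strain carries the M mating type, and its M-factor genes mfm1, mfm2 and mfm3 stood at 24.8, 274 and 359 per kb. The P-factor gene map2 had 45.5 per kb, and mat1-Mc, a mating-type gene of M cells, was listed with a mean of 0. The mean normalized counts behind these levels were low, at 3.20 for mfm1, 36.9 for mfm2, 45.2 for mfm3 and 27.6 for map2. These genes therefore do not settle the mating type. Neither tub1 nor mat1-Pc was matched by name.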

How the data were processed

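The data are RNA-Seq libraries of 5 conditions, 15 libraries in all. Per the labels and methods, the authors used STAR 2.7.10a and SAMtools 1.3 for mapping on ASM294v2, HTSeq 2.0.1 for the count matrix and DESeq2 for comparing conditions. The signal values used here are the authors' deposited mean normalized counts, which are counts scaled by size factors and then averaged across every library. GC percent and read pairs per library were deposited by the authors. The tables also hold the authors' own comparisons of each treatment with the control (log2 fold change, its standard error, a Wald statistic and p-values). These were not used, so no comparison between conditions was made and no statistical test was run. Levels were divided by the coding length of the RefSeq annotation of ASM294v3, another assembly version, used for names, chromosomes, lengths and overlaps. Identifiers of 5109 of 5145 genes matched, and 5101 with a mean above 0 were ranked. A percentile is the share of these genes at or below a level. The members and gene lists were chosen with earlier results of these data known. All 10 members were named, with the highest and lowest gene of each list; other genes were named after their values were seen. Python 3.11.15, NumPy 2.4.6, SciPy 1.17.1 and matplotlib 3.10.9 were used.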

Additional observations from a re-analysis of the deposited data

How the results depend on the processing

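The order of the members rests on the length by which a level is divided. Without division by length, which favours long mRNAs, the percentile of 9 of the 10 members rose and that of mpr1 fell, by up to 47.7 points. Per gene span 7 rose and 3 fell, by up to 23.7 points. Per kb of exons 6 rose and 4 fell, by up to 24.2 points. The exon length was chosen after the data were seen, and so was every other length for the ratios and for the medians and counts of the lists. As did other pairs, wis1 and pyp1 changed order per gene span and per kb of exons (ratio 0.732). The ratio of mcs4 to mpr1 was 3.53 without division and 6.40 for both other lengths, and that of sty1 to wis1 was 4.29 without division. Without division by length the percentile of the median of the Sty1 members was 63.1, of the other pathway genes 74.9, of the cell integrity module 55.8, of the pheromone module 24.4 and of the target genes 86.4. Per gene span it was 37.2 for the Sty1 members, 54.4 for the other pathway genes, 16.6 for the pheromone module and 87.0 for the target genes. Per kb of exons it was 35.8, 57.7, 38.0, 18.0 and 85.6 in the order first given. With the mean of log2 levels in place of the median it was 40.4 for the Sty1 members, 77.1 for the other pathway genes, 28.4 for the pheromone module and 82.3 for the target genes. Ranked among only the 4994 genes whose mean reached 10 normalized counts, each member's percentile fell by at most 1.97 points, and that of the pheromone module was 18.0. Settings that need values per library, such as leaving out a replicate, other size factors or another count test, were not run, and neither was the alignment of member proteins. The depth in read pairs per library cannot be turned into an error of a mean here.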
